A study of Mus musculus with 4 samples.

Results

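The insulin-like growth factor (IGF) system was examined in 4 populations of cultured mouse bone marrow cells, through 10 genes: the ligands Igf1 and Igf2, the receptors Igf1r and Igf2r, and the binding proteins Igfbp2 to Igfbp7. They were taken by name, as all non-control probes whose gene name on the array was one of these 10, which gave 21 probes among 41174 on the array and 10 genes among the 19787 that could be named. Expression was measured on 1 one-colour Agilent array per population, so no difference below has a replicate check, a standard error or a p-value, and the number of arrays limits the precision. All cells came from the marrow of the mouse strain BALB/C.

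The antibody-treated sDCs were grown like the sDCs, but their coculture medium received an IL-10 neutralizing antibody every 2 days, at 10 µg/mL. The sDCs were formed by day 9 from lineage-depleted haematopoietic progenitors seeded on a layer of Sca-1+CD117-Lin- mesenchymal stem cells (MSCs), with lipopolysaccharide (LPS) added on day 4. The labels call every population purified but do not say how sDCs were taken off that layer, and record no LPS dose for them. The maDCs were imDCs kept for 4 to 5 more days with LPS at 10 ng/mL. The imDCs were loosely adherent clusters from marrow cultures with 10 ng/mL of GM-CSF and 5 ng/mL of IL-4, taken on day 4 with beads against CD11c. No label says whether animals were pooled.

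IGF1 and IGF2 are small secreted hormones related to insulin. Both act through the tyrosine kinase receptor encoded by Igf1r, which signals through insulin receptor substrates to PI3 kinase and AKT and to the MAP kinases. The product of Igf2r, the cation-independent mannose 6-phosphate receptor, does not signal in this way: it carries lysosomal enzymes to lysosomes and removes IGF2 from outside the cell. IGF-binding proteins hold most secreted IGF, lengthen its life and either block or release it, and several of them are cut by secreted proteases. Macrophages and stromal cells are both known sources of IGF1, and IGF-binding proteins are common products of stromal cells.

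Values below are levels on a log2 scale, as the processed intensity of a probe relative to the 75th percentile of its own array, so that 0 is the level at that percentile and a difference of 1 is 2-fold. Levels are set side by side within a probe only, since probes differ in how brightly they bind. A probe counted as well above background on an array if the scanner's own mark said so for 50% or more of its usable spots, and a difference of at least 2-fold was counted as higher or lower. Where 1 of the arrays compared was not well above background, the difference is a bound against the dimmest measurable probe there and is written "at least". By slide and scan, the imDC array (slide 2, scan 2) stood apart from the other 3 (slide 1, scan 1), so in any comparison with imDCs the population and the slide cannot be told apart.

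The labels were set against marker genes. Of 12 dendritic cell markers, 11 were at least 2-fold lower in sDCs than in maDCs, the median difference being -5.44, and 11 of 12 macrophage markers were higher (median 2.70). Of 18 stromal markers with a value 14 were higher in sDCs than in maDCs (median 5.15). Thy1, at -1.92, and Vcam1, at -1.57, were lower. The exception among dendritic cell markers was the transcription factor gene Irf8, at 5.20 in antibody-treated sDCs, 5.34 in sDCs, 6.19 in maDCs and 3.69 in imDCs. Cd74, the MHC class II invariant chain, stood at 1.49 in antibody-treated sDCs, 1.51 in sDCs, 7.79 in maDCs and 7.26 in imDCs, and Itgax, the gene of CD11c, at -1.47, -1.60, 3.70 and 2.93 in the same order. The collagen gene Col1a1 stood at 4.77 in antibody-treated sDCs, 5.57 in sDCs, -2.69 in maDCs and -2.59 in imDCs. The name sDC is kept here as a label only. In these bulk samples, fewer cells of a type and less RNA per cell cannot be told apart.

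Probes of Igf1, Igfbp3 and Igfbp5 gave different values within a gene, and Igf2 has the widest range, so the probes of these genes are shown. Each line gives the first 30 of the 60 bases, 5′ to 3′, in lower case throughout, as the scanner tables hold them, with the mm9 position the tables list.
Igf1 probe A_51_P147942 (chr10:87393516-87393575): cgcaggatcctttgctgcttgagcaacctg
Igf1 probe A_52_P536434 (chr10:87376418-87376477): tggatgagtgttgcttccggagctgtgatc
Igf1 probe A_52_P351116 (chr10:87396567-87396626): tacttactcaatacctaggtcaaatgttga
Igf1 probe A_52_P306327 (chr10:87325382-87325441): taaaatagttgagtaaaatttgccactgat
Igf2 probe A_51_P516826 (chr7:149836673-149836709): aacatgcattttctggcaaaatcaaagctt
Igfbp3 probe A_52_P253179 (chr11:7106594-7106653): gcagttttccaaaaacacagatttcttttc
Igfbp3 probe A_51_P228472 (chr11:7108469-7109478): tctataagaagaaacgatgccgcccttcca
Igfbp3 probe A_52_P851352 (chr11:7111815-7111874): ctgtgacacaattcacaattccctatttaa
Igfbp5 probe A_52_P281702 (chr1:72904829-72904888): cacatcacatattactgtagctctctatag
Igfbp5 probe A_51_P204153 (chr1:72907366-72907425): aatagaattttccttggtgtctcccatcta
The Igf1 probes lie on the plus strand and the others on the minus strand, by the order of the listed ends. The listed Igf2 position covers 37 bases and that of Igfbp3 probe A_51_P228472 spans 1010 bases, so these positions do not match the 60 bases of the probe. No annotation of mm9 was used here, so exons and untranslated regions are not assigned. The tables tie A_52_P306327 and A_52_P851352 to cDNA clones they describe as unclassifiable, AK050118 and AK045003, rather than to the RefSeq transcript of the gene.

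Igf1 was highest in the populations formed on stroma, intermediate in maDCs and lowest in imDCs. Its brightest probe, A_51_P147942, had levels of 5.44 in antibody-treated sDCs, 5.34 in sDCs, 3.76 in maDCs and 0.88 in imDCs. This probe was spotted 10 times, with a spread between usable spots of 0.026, 0.056, 0.028 and 0.036 log2 units (SD, n = 10, 10, 10 and 9 spots on those arrays). The spread covers spotting and scanning only, not cultures, and the steps between sDCs, maDCs and imDCs are far wider than it. In processed intensity, the spots lay between 56208 and 59639 in antibody-treated sDCs, between 50601 and 55822 in sDCs, between 19704 and 21181 in maDCs and between 3578 and 3889 in imDCs. No spot of an array overlapped those of another array before scaling. After scaling, the spots of both sDC populations overlapped, the lowest being 5.40 in antibody-treated sDCs and the highest 5.41 in sDCs. On this probe Igf1 was 22.0-fold higher in sDCs than in imDCs and 2.99-fold higher in sDCs than in maDCs. It was 7.35-fold higher in maDCs than in imDCs.

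The other 3 Igf1 probes, with 1 spot each, gave the same order of sDCs over maDCs over imDCs but different spacings. Probe A_52_P536434 had 3.99, 3.88, 2.19 and -0.35 in antibody-treated sDCs, sDCs, maDCs and imDCs, with an sDC minus maDC difference of 1.69. Probe A_52_P351116, farther along the transcript (position 3895 against 844 for A_51_P147942), had 2.56, 2.54, -1.25 and -3.28 in those populations. Its sDC minus maDC difference was 3.79, against 1.58 on A_51_P147942. Probe A_52_P306327 had 1.21, 1.49, -1.78 and -2.88, with a difference of 3.26. Each probe therefore placed sDCs at least 2-fold above maDCs, but the size of that step lay between 1.58 and 3.79 on the log2 scale, depending on the probe.

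**Figure D1:**
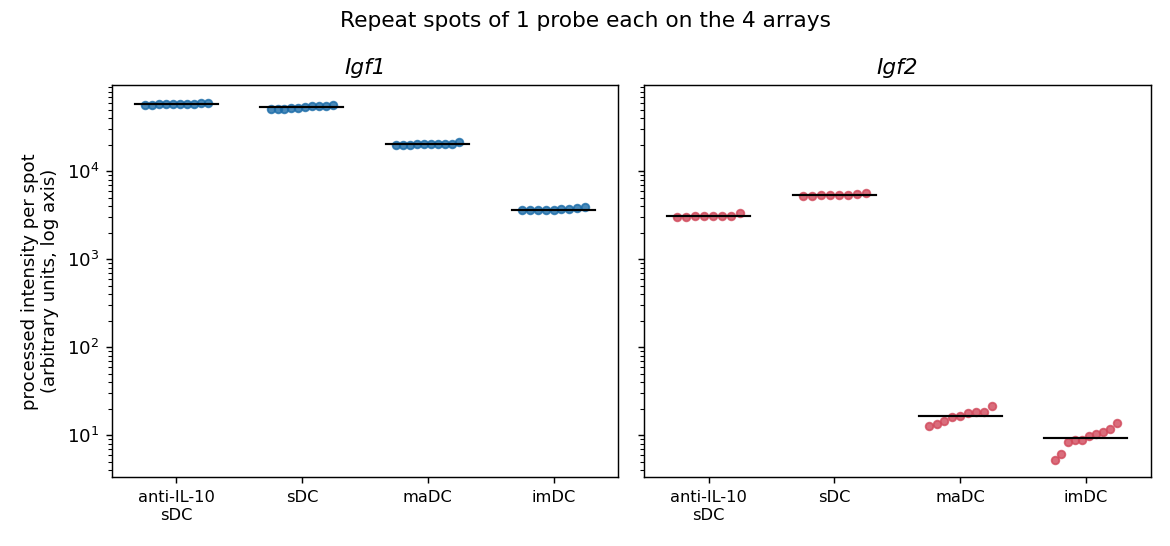
Processed intensity of each usable spot (arbitrary units, logarithmic axis) of 1 Igf1 probe and 1 Igf2 probe that were spotted 10 times per array, in antibody-treated sDCs, sDCs, maDCs and imDCs. Black lines are medians over spots. The Igf2 spots start at 3012 in antibody-treated sDCs and at 5148 in sDCs, and reach no more than 21.7 in maDCs and 13.7 in imDCs, where the probe was not well above background.

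Igf2 was measurable in the stroma-formed populations alone. Probe A_51_P516826 had a level of 1.22 in antibody-treated sDCs and 2.03 in sDCs (SD between spots 0.046 and 0.044, n = 8 usable spots each). It was not well above background in maDCs and imDCs, where its signal stood at -6.50 and -7.78. The lowest measurable levels on those arrays were -5.44 and -7.28, which makes Igf2 at least 178-fold higher in sDCs than in maDCs and at least 636-fold higher than in imDCs. The other probe, A_51_P516833, had -0.71 in antibody-treated sDCs and 0.00 in sDCs, and was likewise not well above background in maDCs and imDCs. By that probe the sDC level was higher by at least 5.44 (against maDCs) and at least 7.28 (against imDCs) on the log2 scale. The non-coding RNA gene H19, the imprinted neighbour of Igf2, was well above background on all 4 arrays, at -1.67 in antibody-treated sDCs, -1.25 in sDCs, -4.25 in maDCs and -4.87 in imDCs.

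The receptors differed from each other. Igf1r varied least of all members, with levels of 0.50 in antibody-treated sDCs, 0.50 in sDCs, 0.59 in maDCs and 0.87 in imDCs on its brightest probe (A_51_P474538, chr7:75376998-75377057). The differences of maDCs and of sDCs from imDCs were -0.28 and -0.37, so all 4 arrays lay within 2-fold on this probe. Of its other 3 probes, A_51_P318365 and A_52_P634111 also kept the populations within 2-fold in the 4 comparisons, with differences between -0.81 and 0.07. Probe A_52_P668647, tied to cDNA clone AK044980, had -1.68, -1.90, -2.87 and -1.23 in antibody-treated sDCs, sDCs, maDCs and imDCs, so that the maDC minus imDC difference was -1.64 on this probe alone. Igf2r, by contrast, followed the order of Igf1: its single probe (A_51_P125467, chr17:12875253-12875263) had 4.00 in antibody-treated sDCs, 4.02 in sDCs, 2.13 in maDCs and 0.02 in imDCs. That is 16.0-fold higher in sDCs than in imDCs, 4.31-fold higher in maDCs than in imDCs and 3.71-fold higher in sDCs than in maDCs. The listed position of this probe covers 11 bases of its 60.

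Among the binding proteins, Igfbp2, Igfbp3 and Igfbp6 were highest in sDCs. Igfbp2, which binds both IGFs, had levels of -1.55 in antibody-treated sDCs, -0.69 in sDCs, -3.69 in maDCs and -5.11 in imDCs on its single probe (A_51_P423308, chr1:72898677-72898736). It was 21.4-fold higher in sDCs than in imDCs, and its sDC minus maDC difference was 3.0 on the log2 scale. The maDC level was 1.42 above that of imDCs, but only 0.998 above it with normexp background correction and 0.96 with the authors' deposited values. Igfbp6, which prefers IGF2 over IGF1, had -0.68 in antibody-treated sDCs, -0.54 in sDCs, -5.09 in maDCs and -3.47 in imDCs (A_51_P374571, chr15:101979763-101979823). It was 23.4-fold higher in sDCs than in maDCs and 7.64-fold higher than in imDCs, and was the only member at least 2-fold lower in maDCs than in imDCs, at -1.62. With normexp background correction, which here added an offset of 50 to each intensity, that last difference was -0.70. The processed intensity in maDCs and imDCs was 43.9 and 180 for Igfbp6, and 116 and 57.8 for Igfbp2.

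Igfbp3, the main IGF carrier of serum, rested on 1 of its 3 probes. Probe A_52_P253179 had -3.16 in antibody-treated sDCs and -2.24 in sDCs, and was not well above background in maDCs (-7.69) and imDCs (-9.47). By this probe the gene was higher in sDCs by at least 3.21 (against maDCs) and at least 5.04 (against imDCs) on the log2 scale. The other probes gave no such difference. A_52_P851352 was not well above background on any of the 4 arrays, and A_51_P228472 was so marked in imDCs only, at -6.91, with -6.62, -6.37 and -7.15 in antibody-treated sDCs, sDCs and maDCs. With the 3 probes averaged, the sDC minus maDC difference of Igfbp3 was 0.67. For that average, levels under the lowest measurable level of an array were raised to it (-5.44 in maDCs and -6.04 in sDCs). All 3 probes therefore entered at -5.44 in maDCs, and the dim ones at -6.04 in sDCs, above their own levels.

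Igfbp5 and Igfbp7 had another order, with maDCs at the top. Igfbp5, a binding protein that also attaches to extracellular matrix, had levels of -2.35 in antibody-treated sDCs, -1.78 in sDCs, 2.14 in maDCs and -3.32 in imDCs on probe A_52_P281702. It was 43.9-fold higher in maDCs than in imDCs and 15.1-fold lower in sDCs than in maDCs, while sDCs lay 2.91-fold above imDCs. The other Igfbp5 probe, A_51_P204153, was well above background in maDCs alone, at -4.5, which is at least 2.78 above imDCs on the log2 scale, and its sDC minus maDC difference was -1.54 or lower. Igfbp7, a more distant member of the family with weak affinity for IGFs, had 4.04 in antibody-treated sDCs, 4.77 in sDCs, 5.74 in maDCs and 0.96 in imDCs (A_51_P472292, chr5:77778355-77778414). It was 27.6-fold higher in maDCs and 14.1-fold higher in sDCs than in imDCs, and the sDC minus maDC difference of -0.97 fell just short of 2-fold.

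Igfbp4, an inhibitor of IGF action, differed little. Its brighter probe (A_52_P257502, chr11:98913334-98913393) had -1.70 in antibody-treated sDCs, -1.74 in sDCs, -1.01 in maDCs and -1.25 in imDCs, so that no comparison reached 2-fold. The other probe (A_51_P398971) gave the same order of maDCs, imDCs and the stroma-formed cells, and its sDC minus maDC difference was -1.02, against -0.73 on the brighter probe.

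**Figure D2:**
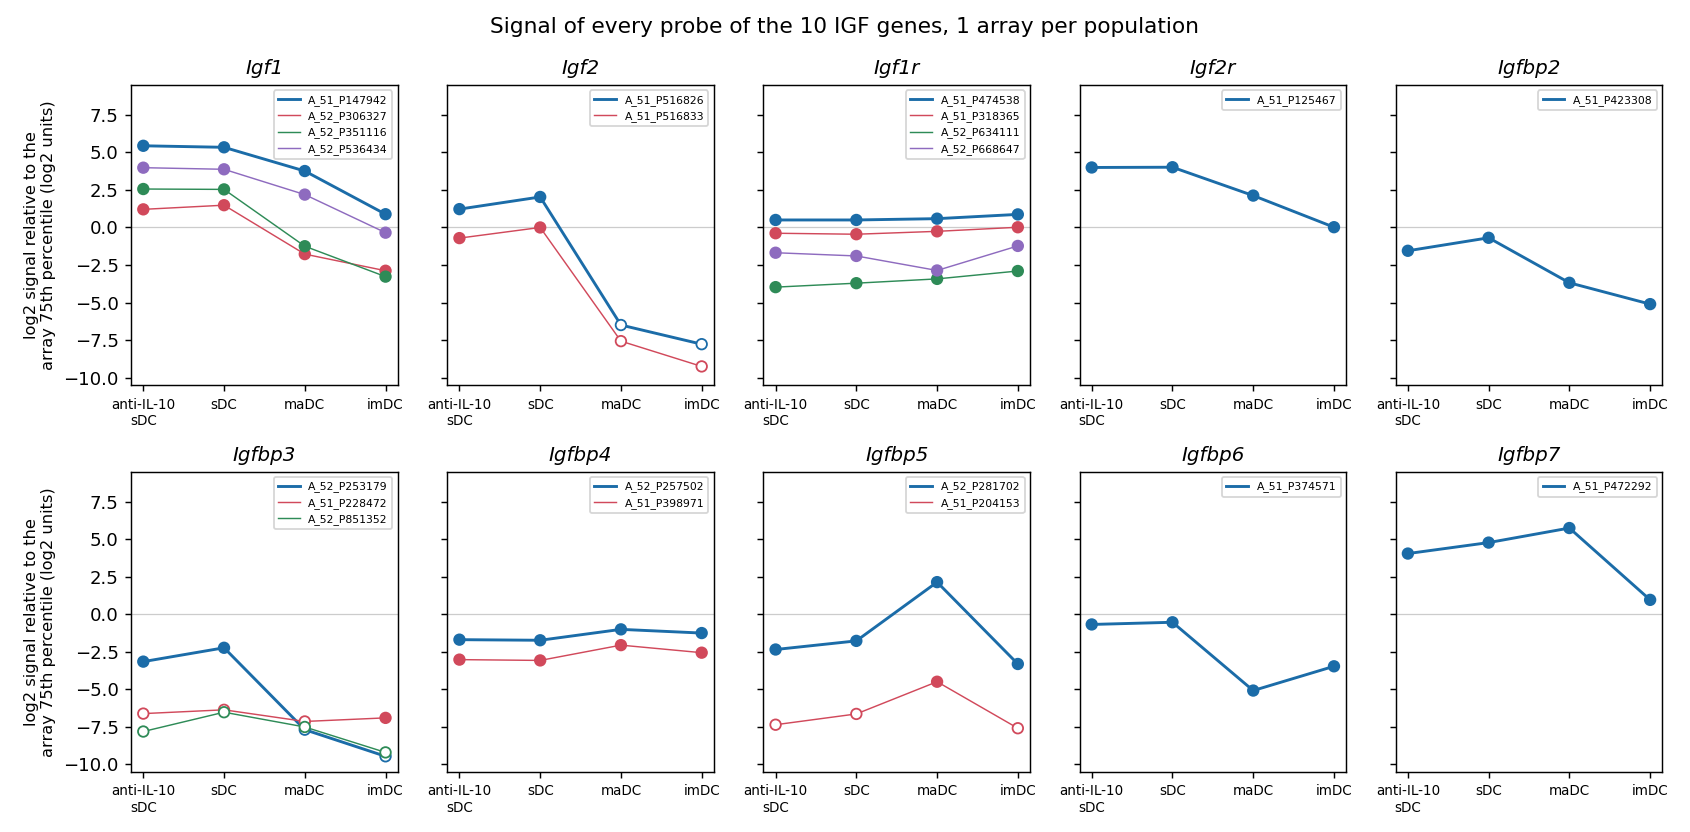
Level of every probe of the 10 genes (log2 signal relative to the 75th percentile of the array), with antibody-treated sDCs, sDCs, maDCs and imDCs from left to right. Thick lines join the values of the brightest probe, thin lines those of other probes, and open circles mark probes not well above background; Igf1 and Igf2r step down from sDCs to imDCs, Igfbp5 and Igfbp7 peak in maDCs, and Igf1r and Igfbp4 stay within a narrow range.

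Counted by comparison, most of the 10 genes were higher in sDCs. In sDCs against imDCs, 8 of 10 members were at least 2-fold higher, where 25.4% of all 15033 genes with a value were, and none was lower (16.1% of all genes). In either direction, 41.5% of all genes reached 2-fold. The median difference of the 10 members was 3.91, against 0.21 over all genes, and the members within 2-fold were Igf1r and Igfbp4. In sDCs against maDCs, which shared a slide and had both received LPS, 6 of 10 were higher (14.2% of all genes) and 1, Igfbp5, was lower (16.8%, and 31% either way), with a median of 1.74 against 0.03 over all genes. In maDCs against imDCs, 5 of the 8 members with a value were higher (21.6% of all genes) and 1, Igfbp6, was lower (10.8%, and 32.3% either way), with a median of 1.76 against 0.18 over all genes. The comparisons of maDCs and sDCs with imDCs share the imDC array. In maDCs against imDCs, the days in culture differed along with LPS. In sDCs against imDCs, the starting cells, stroma, cytokines and days in culture differed along with LPS. In sDCs against maDCs, the starting cells, stroma and cytokines differed. Within each comparison these factors cannot be told apart. Quantile normalization moved the median of all genes to 0.02 in maDCs against imDCs and to 0.03 in sDCs against imDCs.

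Marker genes of other cells moved along with several of these differences. The summed linear level of 19 stromal markers was 147 in antibody-treated sDCs, 239 in sDCs, 147 in maDCs and 165 in imDCs, with 18, 18, 14 and 15 of them well above background. The sum adds probes of unequal brightness, and Thy1 and Acta2 made up 25.3% of it in antibody-treated sDCs, 21.2% in sDCs, 93.9% in maDCs and 91.6% in imDCs, so it does not show the differences of the other stromal genes. Thy1 stood at 3.78, 4.72, 6.63 and 6.74 in antibody-treated sDCs, sDCs, maDCs and imDCs, whereas Col1a1, Col1a2 and Dcn were higher in sDCs than in imDCs by 8.16, 7.20 and 10.16. The sum over 12 macrophage markers was 416, 475, 151 and 42.9 in the same order of populations, all 12 being well above background on each array. In maDCs against imDCs, where Igfbp5 and Igfbp7 were far higher, 5 of 16 stromal markers were higher, with the proteoglycan gene Dcn at 5.02, and 2 lower (median -0.10, but 0.03 with normexp and 0.78 with probes averaged), 9 of 12 macrophage markers were higher (median 1.32), all 8 mast cell and basophil markers were higher (median 3.11) and all 8 neutrophil markers on the array were lower (median -6.17). Endothelial markers were higher in 4 of 5 cases (median 1.08), and Pecam1 was lower, at -1.12. Only 2 were higher with quantile normalization (median 0.999) or with normexp (median 0.98, and 0 lower). The part of cell makeup in the differences of the IGF genes was not tested.

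**Figure D3:**
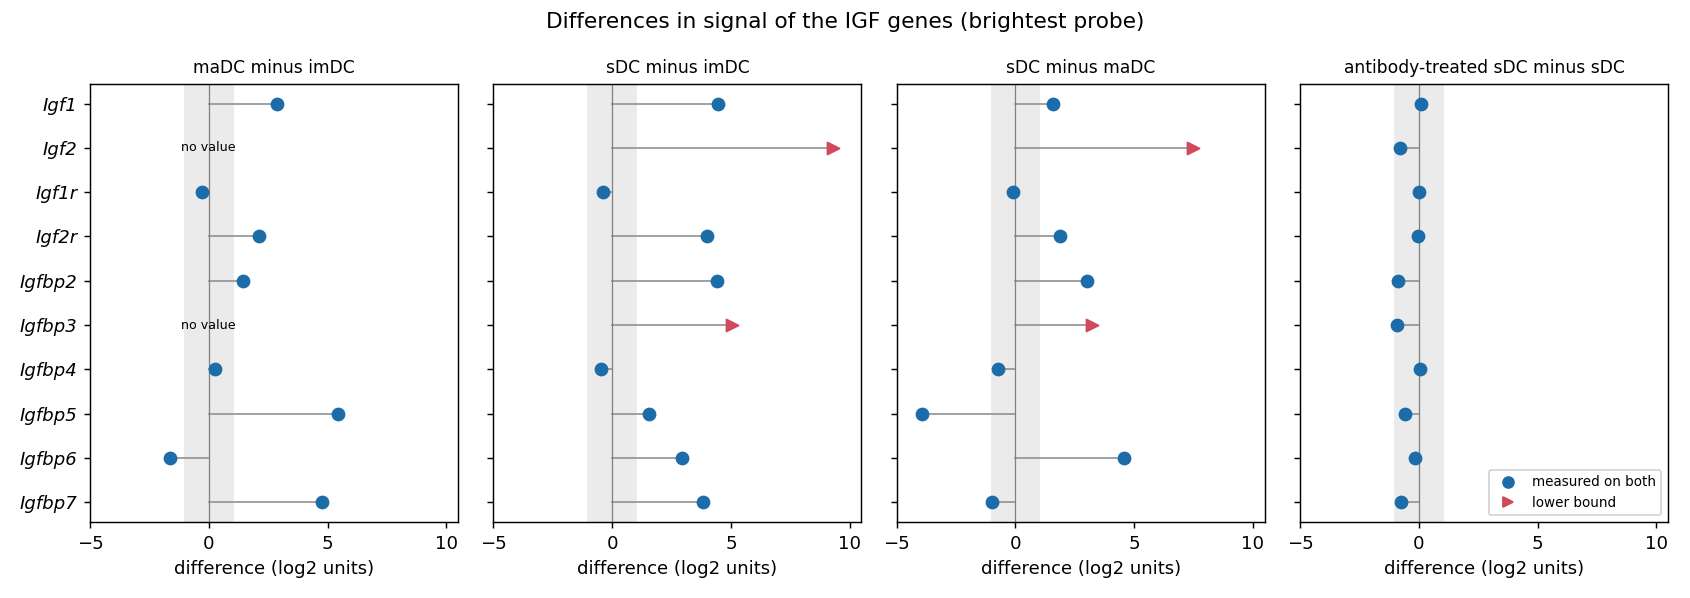
Difference in level of the brightest probe of each gene (log2 units) in the 4 comparisons. Circles were measured on both arrays, triangles are lower bounds because the probe was not well above background on the second array, and the grey band marks differences within 2-fold; 8 genes lie right of the band in sDC minus imDC and none lies outside it in antibody-treated sDC minus sDC.

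With IL-10 neutralized during the formation of sDCs, 5 members had differences between -0.92 and -0.57 and the other 5 lay near 0. No member reached 2-fold in either direction, as 2.11% of all genes did (1.25% lower and 0.862% higher). Igfbp3 was at -0.92 on its measured probe, Igfbp2 at -0.87, Igf2 at -0.81, Igfbp7 at -0.73 and Igfbp5 at -0.57. In a comparison with a narrow spread over genes these values lay far to the low side: 1.38%, 1.85%, 2.37%, 3.20% and 4.75% of the 13800 genes measured on both arrays were as low or lower. With all probes of a gene averaged, Igfbp3 was at -0.13 and Igfbp5 at -0.15. For that average, levels under the lowest measurable level of an array were raised to it (-5.76 in antibody-treated sDCs and -6.04 in sDCs). The dim probes of both genes so entered as higher in antibody-treated sDCs, although their own levels were lower there. The remaining members lay close to 0, with Igf1 at 0.10, Igfbp4 at 0.04, Igf1r at 0.00, Igf2r at -0.02 and Igfbp6 at -0.15. For Igf2, the 8 usable spots lay between 3012 and 3342 in antibody-treated sDCs and between 5148 and 5680 in sDCs, without overlap, and its other probe gave -0.71.

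Over the same arrays, the stromal markers had a median difference of -0.82 (18 with a value, range -1.09 to 0.07), 2 of them being at least 2-fold lower. Col1a1, Col1a2 and Sparc were at -0.80, -0.84 and -0.92. Macrophage markers had a median of -0.23, dendritic cell markers of -0.14 and neutrophil markers of 1.13, with 5 of the 8 neutrophil markers at least 2-fold higher. All 10 members lay within the range of the macrophage markers (-0.94 to 0.26), whose lowest value was that of C1qc, and 9, all but Igf1, within that of the stromal markers. The part of either cell type in these differences was not tested. With 1 culture per arm, a lower share of stromal RNA and a lower level per cell cannot be told apart.

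**Figure D4:**
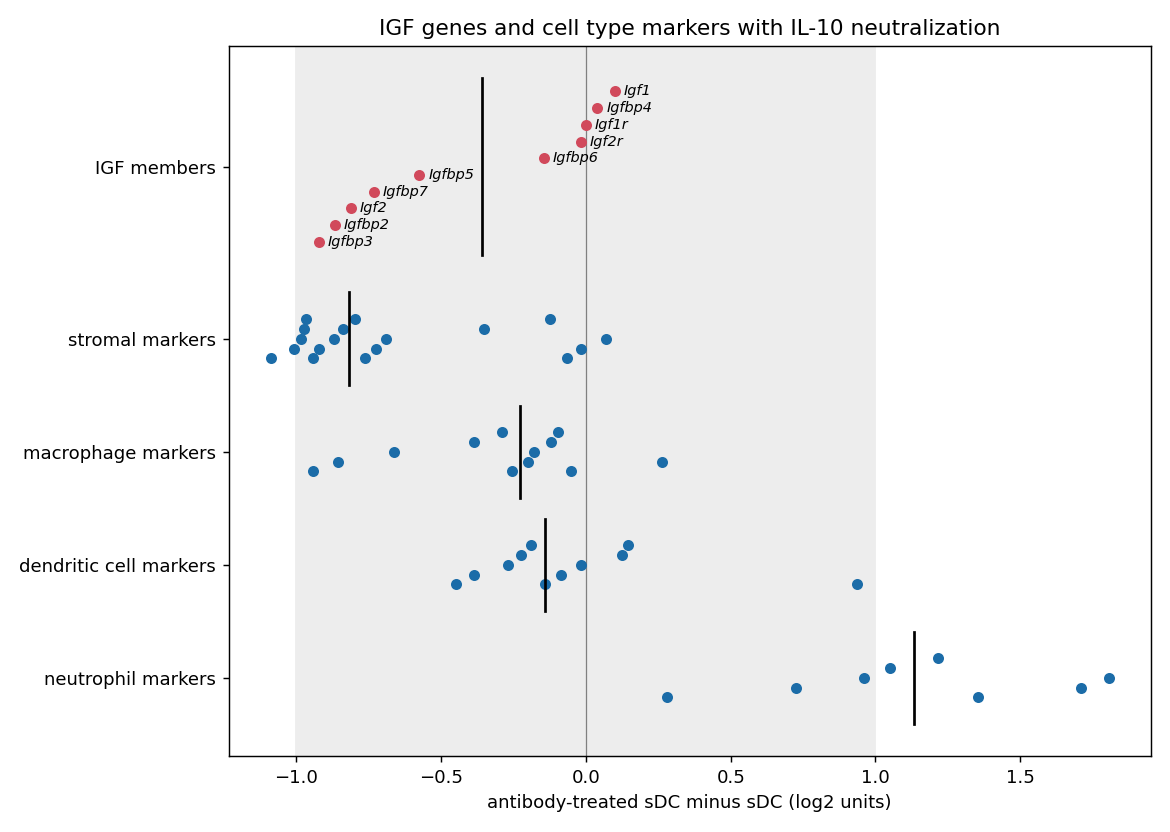
Antibody-treated sDC minus sDC differences (log2 units) of the 10 IGF genes and of 4 marker lists, 1 point per gene, with black lines at the median of each list and a grey band for differences within 2-fold. Igf2, Igfbp2, Igfbp3, Igfbp5 and Igfbp7 lie between -0.92 and -0.57, near most stromal markers, and the other 5 IGF genes between -0.15 and 0.10.

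Genes that carry the signal of the IGF1 receptor were taken as a list of 35, of which 34 were named on the array. In sDCs against imDCs 8 were at least 2-fold higher, near the 25.4% of all genes, and 2 lower (16.1% of all genes), with a median of 0.22 against 0.21 over all genes. The largest differences were those of Grb14 and Grb10, adaptors that restrain insulin and IGF receptors, which were higher by 4.09 and 2.00, of the receptor substrate gene Irs1, higher by 2.34, and of the translation repressor gene Eif4ebp1, higher by 1.79. In sDCs against maDCs 5 were higher (14.2% of all genes) and 4 lower (16.8%), with a median of 0.20. Grb14 was higher by at least 4.87, Grb10 by 2.86 and Irs1 by 2.50, while Pik3r1, a regulatory subunit of PI3 kinase, was at -3.0 and Foxo1, a transcription factor that AKT restrains, at -1.79. The values of Grb14 and Irs1 rest on 1 probe each. The other Grb14 probe was not well above background on any array, and neither of the other Irs1 probes was in either sDC population or in maDCs. The other Grb10 probes gave 0.65 and 2.73 in sDCs against imDCs. Neither was well above background in maDCs, so the Grb10 value against maDCs also rests on 1 probe. In maDCs against imDCs 5 were higher (21.6% of all genes) and 1, Akt2 at -1.75, was lower (10.8%), with a median of -0.09 that turned to 0.02 with probes averaged. Foxo1 was at 3.35, Pik3r1 at 1.83 and Tsc1, a brake on mTOR, at 1.59. Probes disagreed for some of these genes: the other Akt2 probe gave -0.84, the other Tsc1 probes 0.39, -0.08 and -0.12, and the other Pik3r1 probes 0.85, 0.99 and 2.27. With the antibody none of 33 reached 2-fold (2.11% of all genes). The lowest values there were again those of Irs1 (-0.98), Grb10 (-0.93) and Grb14 (-0.80), and Grb2, another adaptor, was at -0.38.

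Proteases that free IGF from binding proteins, with their inhibitors, made a list of 8 genes. In sDCs against imDCs 5 of the 7 with a value were higher (25.4% of all genes) and 1 lower (16.1%), with a median of 2.05. Pappa, whose product cuts IGFBP4 and IGFBP5, was higher by at least 7.74, and Adam12 by at least 5.71. The serine protease gene Htra1 was higher by 5.21 and Adam9 by 2.05. Stc1, an inhibitor of Pappa's product, was higher by 1.82, whereas Stc2, another such inhibitor, was at -1.60. The Stc1 value rests on 1 dim probe, at -4.88 in sDCs and -6.70 in imDCs. The other Stc1 probes were not well above background in either population. In sDCs against maDCs 3 were higher (14.2% of all genes) and 1 lower (16.8%), the median being 0.81, with Pappa and Adam12 higher by at least 5.90 and 3.87, Adam9 higher by 1.80 and Stc2 at -1.01. The large bounds of Pappa and Adam12 rest on 1 probe each. Their other probes stood at -4.88 and -5.29 in sDCs and were not well above background in maDCs or imDCs. The lowest measurable levels there were -5.44 in maDCs and -7.28 in imDCs, so these probes gave no 2-fold bound against maDCs. In maDCs against imDCs 1 of 4 was higher (21.6% of all genes), Htra1 at 4.41. With the antibody 2 of 7 were lower (1.25% of all genes), but neither on every probe: Pappa was at -1.15 on its brighter probe and at -0.76 on the other, and Adam12 was at -4.19 or lower. The Adam12 value came from 1 spot, at -1.57 in sDCs and not well above background in antibody-treated sDCs. The other Adam12 probe stood at -5.29 in sDCs and, not well above background, at -6.10 in antibody-treated sDCs.

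Of 11 further IGF-related genes, Igfbp1 and Igfbpl1 were not well above background on any array. In sDCs against imDCs 3 of 8 were higher (25.4% of all genes) and none lower (16.1%), with a median of 0.58: H19 by 3.62, the IGF2 mRNA-binding protein gene Igf2bp2 by 1.40 and Igfals, which encodes a partner of IGFBP3 in serum, by at least 3.12. In sDCs against maDCs 2 of 7 were higher (14.2% of all genes) and 2 lower (16.8%), H19 being at 3.0 and Igfals higher by at least 1.28, against Plagl1 at -1.38 and Igf2bp1 at -1.07. The median there was -0.78, but 0.11 with probes averaged and 0.27 without the filter on dim probes. Igf2bp1 was not lower in sDCs on every probe. Its probe A_52_P295950 ran the other way, at -3.86 in sDCs and, not well above background, at -6.19 in maDCs. In maDCs against imDCs 3 of 6 were higher (21.6% of all genes; median 1.0), namely Igf2bp1 at 2.02, Plagl1 at 1.14 and Igf2bp3 at 1.06. With the antibody 1 of 7 was lower (1.25% of all genes), Igfals at -1.61 or lower, on a single spot that was well above background in sDCs only.

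The genes most like Igf1 across the 4 arrays were sought among 12946 genes well above background on all of them, by the Euclidean distance between log2 profiles centred on their mean. The nearest 3 were Creg2 (distance 0.12 log2 units), the C-type lectin gene Clec4d (0.20) and Vwa1 (0.23). Clec4d had levels of 7.41 in antibody-treated sDCs, 7.30 in sDCs, 5.77 in maDCs and 3.09 in imDCs. With 4 arrays, many genes share such an order, and the likeness is a description.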

How the data were processed

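Each array came as a scanner table. The authors deposited processed spot intensity, from which the Feature Extraction software (10.5.1.1, build mm9, per the file headers) had already subtracted background and removed spatial trends. The version in the submitters' processing notes is 9.1. A separate table of values on a log2 scale, made by the authors in a way not given in the sources used here, served as an alternative. Its columns had the same distribution (median 6.30 each) and correlated with log2 intensity across probes at 0.997 to 1.00, so they were not centred by gene and ran the same way.

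Controls and outlier spots (76 to 148 per array) were dropped, log2 intensity minus the 75th percentile of the array was taken, and spots of a probe were averaged. No spot was saturated (0 on each array), and 61.2% to 69.7% of spots were well above background. Genes were named through RefSeq accessions, symbols or unique synonyms (assembly GRCm38.p6, names only), 8104 probes had no match, and the brightest probe stood for a gene. Alternatives were another scaling (quantile, or other percentiles), normexp background correction (offset 50, limma 3.58.1), the authors' values, averaged probes, and no filter on dim probes. Before probes were averaged, levels under the lowest measurable level of an array were raised to it. The steps were tested on simulated data.

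The members and gene lists were chosen with earlier results of these data known. The rule named all members and probes, up to 4 measured genes and 2 bounds per list and comparison, and the 3 nearest profiles of Igf1, and of the member with the widest range (Igf2), which was not measured on all arrays. Up to 3 markers of a list were to be named by mean signal, and further markers were chosen after their values were seen.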

Additional observations from a re-analysis of the deposited data

How the results depend on the processing

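Over 7 alternatives, 262 of 266 differences of single members stayed on their side of 2-fold, and no difference or median of at least 2-fold changed sign. Smaller values changed sign in 5 cases for members, all of size 0.10 or less before and after, and in 10 for medians of lists. The other 4 fell short of 2-fold: Igfbp2 in maDCs against imDCs (0.998 with normexp, 0.96 with the authors' values), Igfbp6 there (-0.70 with normexp) and Igfbp3 in sDCs against maDCs (0.67 with probes averaged). In antibody-treated sDCs against sDCs no member reached 2-fold under any alternative. With probes averaged, after dim levels were raised to the lowest measurable level, Igfbp3 was at -0.13 and Igfbp5 at -0.15. Why values moved was not tested.

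Counts of genes at least 2-fold different also moved. For maDCs against imDCs, signalling genes lower were 3 with quantile normalization, 2 with median scaling, 4 with the authors' values and 2 without the filter on dim probes, against 1. The median of other IGF-related genes was 0.73 with quantile normalization, 0.98 with the 75th percentile over measured probes, 0.96 with median scaling, 0.87 with normexp, 0.73 with the authors' values and 0.94 with probes averaged or no filter, against 1.0. Proteases higher were 2 with probes averaged and 5 without the filter (median 1.49), against 1, other IGF-related genes higher were 5 without it, and members lower were 0 with normexp.

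For sDCs against imDCs, signalling genes lower were 1 with normexp or averaged probes, against 2, and other IGF-related genes higher were 5 without the filter, against 3. For sDCs against maDCs, proteases lower were 0 with quantile normalization, median scaling and normexp, against 1, and their median was 1.30 with averaged probes. Other IGF-related genes there were 1 higher and 1 lower with normexp and 0 lower with averaged probes, and signalling genes lower were 2 with averaged probes, against 4.

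For antibody-treated sDCs against sDCs, signalling genes lower were 1 with quantile normalization, median scaling and the authors' values, against 0. Other IGF-related genes lower were 0 with normexp and 2 without the filter, and proteases were 1 lower with averaged probes and 1 higher without the filter. Over all genes, normexp gave 45 higher and 47 lower, and no filter 309 and 582, against 124 and 180. Without the filter, 6206 genes were higher in maDCs than in imDCs and 6152 in sDCs than in imDCs, against 3043 and 3814.

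No paired analysis was possible because each group has 1 array. Dim signals limit Igf2 and Igfbp3 to bounds outside the stroma-formed cells.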
